A study of Sus scrofa with 21 samples.

Results

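The genes described here are 9 parts of the machinery by which a cell recognises RNA or DNA in its cytosol: DDX58 (RIG-I), IFIH1 (MDA5), DHX58 (LGP2), TRIM25, MAVS, ZBP1, TMEM173 (STING), TBK1 and IKBKE. They were chosen by name, as every probe whose gene name in the scanner files was one of these symbols, which gave 14 of the 60305 probes of the array. All 14 were among the 45228 probes kept after the 25% with the lowest mean were removed. Probes with the same gene name were averaged, so that the 9 genes were compared within 35578 gene names. These names are those of the scanner files and include transcript identifiers, so that 1 gene can stand under several names. Their transcripts were measured in whole blood of pigs, 1 array per pig, on a one-colour Agilent array with probes of 60 bases.

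The 10 DD pigs were SLAdd minipigs, an inbred French line homozygous for 1 haplotype of the swine leukocyte antigen complex, and came from 5 litters. The 11 LW pigs were Large White, a commercial breed used as the control, and came from 6 litters. All pigs were 60 days old and had free access to a standard diet, and no pig was treated. The comparison asks how blood transcripts of the minipig line differ from those of the commercial breed, and breed, inbreeding and SLA haplotype cannot be told apart in it. The 21 arrays lay on 3 chips, each with both breeds, and litter mates were placed on different chips. The study's methods describe a technical bias of the third of these chips. Values of the 9 genes are therefore given below with the chip effect removed and also within each chip. Litter mates are not independent animals, and p-values measure the spread between these pigs.

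RIG-I and MDA5 are helicases that bind viral RNA and then engage MAVS, an adaptor on the mitochondrial surface, while LGP2 is a relative that lacks the signalling domains. DNA in the cytosol is reported to STING on the endoplasmic reticulum by the enzyme cGAS, and both adaptors recruit the kinases TBK1 and IKKε, which activate interferon regulatory factors. Several of these genes are themselves induced by interferon.

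The probe sequences are shown for the genes on which the results turn: the called genes DDX58 and ZBP1, IFIH1, whose 3 probes gave like differences, and MAVS, whose 3 probes did not. They are the sequences in the scanner files, 5′ to 3′, and capitals mark the 8 bases that end one IFIH1 probe and begin another.
DDX58 A_72_P223287: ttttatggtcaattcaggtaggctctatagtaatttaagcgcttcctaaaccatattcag
IFIH1 A_72_P088691: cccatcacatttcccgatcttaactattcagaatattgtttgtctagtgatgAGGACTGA
IFIH1 A_72_P066761: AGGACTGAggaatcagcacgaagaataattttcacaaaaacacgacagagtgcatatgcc
IFIH1 O2790: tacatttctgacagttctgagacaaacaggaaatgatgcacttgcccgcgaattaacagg
ZBP1 A_72_P345118: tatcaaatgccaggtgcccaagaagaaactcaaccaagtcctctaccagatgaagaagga
ZBP1 A_72_P440576: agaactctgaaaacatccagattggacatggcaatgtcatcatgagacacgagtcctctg
MAVS A_72_P118786: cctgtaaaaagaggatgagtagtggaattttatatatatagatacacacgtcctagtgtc
MAVS O8801: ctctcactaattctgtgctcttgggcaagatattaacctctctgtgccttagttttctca
MAVS A_72_P440226: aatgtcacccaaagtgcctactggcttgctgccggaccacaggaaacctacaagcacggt

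Of the 9 genes, DDX58 and ZBP1 were higher in DD pigs at an adjusted p below 0.05 (limma, Benjamini-Hochberg over all gene names) and 0 were lower. With litter means in place of pigs and no chip term neither passed, at limma adjusted p = 0.051 for DDX58 (log2 FC 1.04) and 0.18 for ZBP1 (log2 FC 0.56). Over all 35578 gene names, 11.4% were higher and 9.57% lower in DD pigs at the same threshold. The log2 fold change (FC, DD minus LW) was positive for 5 of the 9 genes and negative for 4, with a median of 0.35, against a median of -0.04 over all gene names. The 5 positive genes were the 3 RNA helicases, ZBP1 and TRIM25. The 4 others were the adaptors MAVS and TMEM173 and the kinases TBK1 and IKBKE. In bulk blood, fewer cells of a type and less RNA per cell cannot be told apart.

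**Figure D1:**
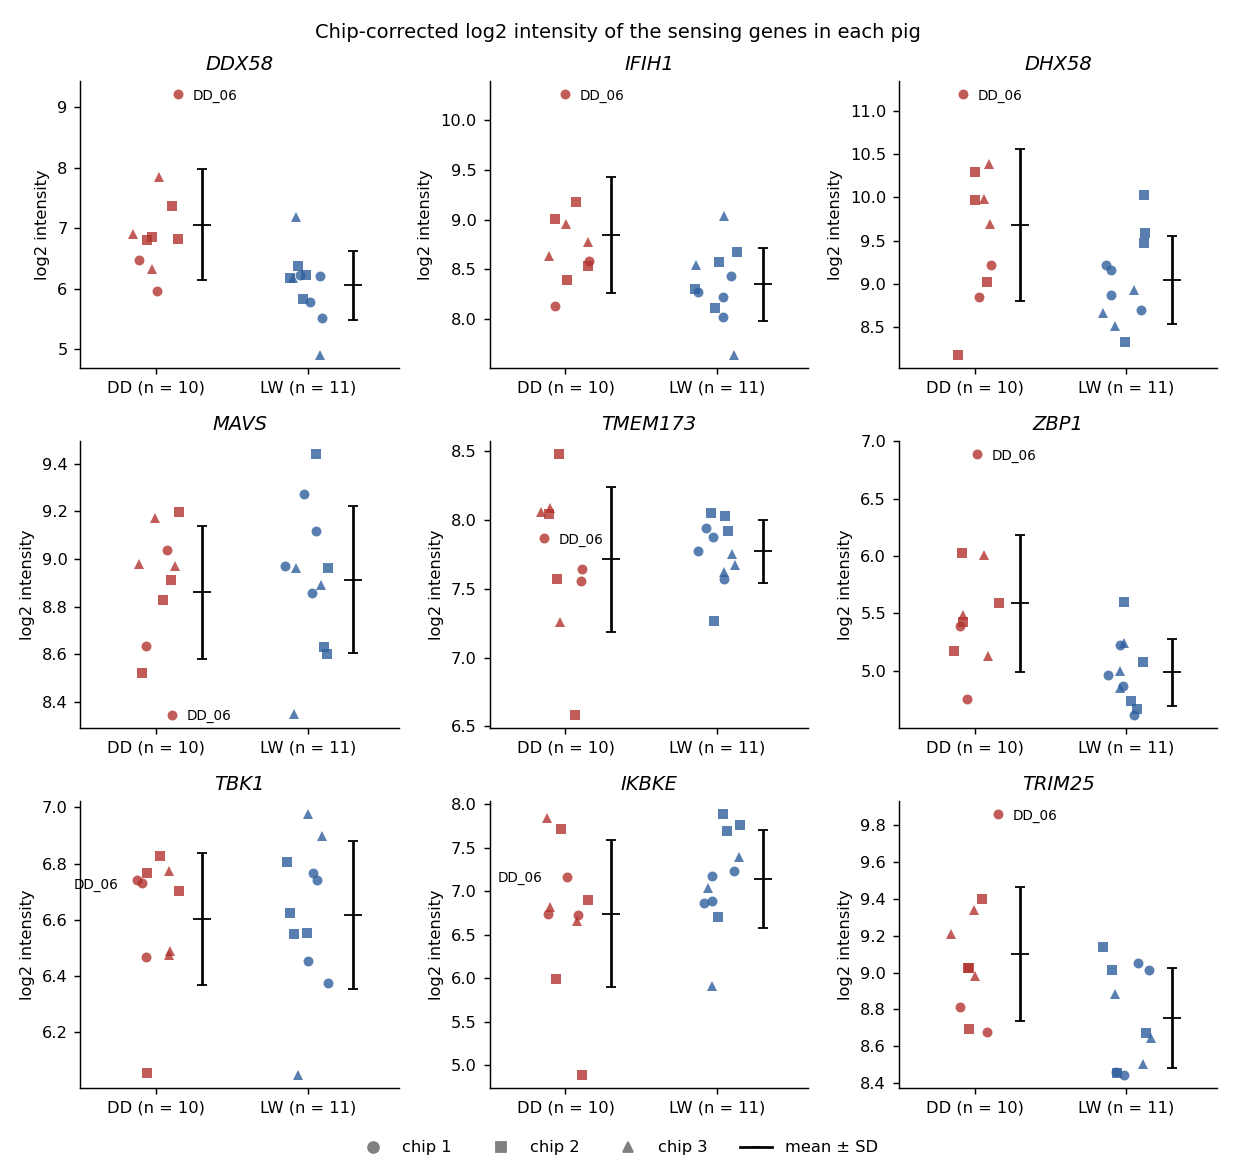
Each point is one pig, with the log2 intensity on the vertical axis after removal of the chip effect, the breed on the horizontal axis and the chip as the symbol. Bars are mean ± SD. DD_06 is the highest of the 21 pigs in the panels of DDX58, IFIH1, DHX58, ZBP1 and TRIM25 and the lowest in that of MAVS, and the breeds overlap in every panel.

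DDX58 encodes RIG-I, the sensor of RNA with a 5′ triphosphate end, and lies at chr10:33891720-33976151 in the RefSeq annotation of Sscrofa11.1. Its chip-corrected log2 intensity ran from 5.97 through a median of 6.83 to 9.22 in the DD pigs, and from 4.91 through 6.18 to 7.18 in the LW pigs. The breeds overlapped, with 3 of 10 DD pigs above every LW pig and 9 of 10 above the LW median. The means were 7.06 ± 0.92 (SD, n = 10) and 6.06 ± 0.57 (SD, n = 11), and the log2 FC was 1.00 (SE 0.30, 95% interval 0.38 to 1.62, limma adjusted p = 0.026), a 2.01-fold higher level in DD pigs.

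The DDX58 difference was positive on all chips, at 1.28, 0.81 and 0.94 on chips 1, 2 and 3. Without DD_06, the highest pig, the log2 FC was 0.71 (limma adjusted p = 0.022). The call was lost without DD_21 (log2 FC 0.91, limma adjusted p = 0.058) or LW_24 (0.87, limma adjusted p = 0.055). A second probe with the same sequence, named by its transcript only, gave 0.86 (limma adjusted p = 0.034). A probe with another sequence, whose accession RefSeq lists for the gene, gave 0.52 (limma adjusted p = 0.18) and followed the first over the pigs within breed and chip (r = 0.83, n = 21).

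IFIH1 encodes MDA5, the sensor of long double-stranded RNA, and lies at chr15:68930998-68985145. Its level ran from 8.13 through 8.70 to 10.26 in the DD pigs and from 7.65 through 8.31 to 9.03 in the LW pigs. DD_06 stood apart above the other DD pigs, most of which lay within the LW range, and 2 of 10 DD pigs were above every LW pig. The log2 FC was 0.50 (SE 0.20, 95% interval 0.07 to 0.92, limma adjusted p = 0.082), which did not pass the threshold, and it was 0.30 (limma adjusted p = 0.14) without DD_06. Within the chips it was 0.75, 0.36 and 0.38. Its 3 probes gave 0.45, 0.51 and 0.52, and none passed the threshold over single probes, at which 11% of the 45228 probes were higher and 10.7% lower in DD pigs. The probes followed each other over the pigs within breed and chip with r between 0.63 and 0.91. The pair with the highest r is the pair that shares the 8 bases in capitals above. The ZBP1 probes also share a run of 8 bases, and their r was 0.44. Whether shared bases bear on r was not tested.

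DHX58 encodes LGP2, which modulates the other helicases, and lies at chr12:20647698-20656691. Its level ran from 8.19 through 9.83 to 11.19 in the DD pigs and from 8.34 through 8.93 to 10.02 in the LW pigs. The DD pigs held both the highest animal, DD_06, and the lowest, DD_16. The log2 FC was 0.63 (SE 0.28, 95% interval 0.05 to 1.22, limma adjusted p = 0.11) and did not pass the threshold. Within chips the difference was 0.74, 0.01 and 1.34, and chip 2 held DD_16. The gene passed the threshold without DD_16 (log2 FC 0.81, limma adjusted p = 0.035) or without chip 2 (0.93, limma adjusted p = 0.032), while its value was 0.42 (limma adjusted p = 0.21) without DD_06 and 0.28 (limma adjusted p = 0.77) without chip 3. Another probe, named dhx58 in the files, gave 0.66 and tracked the first with r = 0.996 (n = 21).

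TRIM25 is the ubiquitin ligase known for modifying RIG-I, and lies at chr12:33184039-33212440. Its level ran from 8.68 through 9.02 to 9.86 in the DD pigs and from 8.44 through 8.67 to 9.14 in the LW pigs. All 10 DD pigs were above the LW median, and 4 of them were above every LW pig. The log2 FC was 0.35 (SE 0.14, 95% interval 0.06 to 0.65, limma adjusted p = 0.077), which missed the threshold, with 0.37, 0.21 and 0.51 within the chips. It was 0.24 (limma adjusted p = 0.15) without DD_06, the highest pig.

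MAVS passes the signal of both RIG-I and MDA5 on, and lies at chr17:31850646-31869273. The mean of its 3 probes ran from 8.35 through 8.94 to 9.20 in the DD pigs and from 8.35 through 8.96 to 9.44 in the LW pigs. The breeds covered nearly the same range, and the log2 FC was -0.05 (SE 0.13, 95% interval -0.33 to 0.23, limma adjusted p = 0.82), with -0.37, -0.05 and 0.30 within the chips. That mean combined probes which moved in opposite directions, so that the gene value stands for none of them.

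Probe A_72_P118786 of MAVS ran from 8.09 through 8.73 to 8.92 in the DD pigs and from 8.46 through 9.14 to 9.66 in the LW pigs. It was lower in DD pigs, at a log2 FC of -0.46 (limma adjusted p over single probes = 0.027, SE 0.14), and 7 of 11 LW pigs lay above every DD pig. Probe O8801 gave -0.34 (SE 0.13, limma adjusted p = 0.054), with 6 LW pigs above every DD pig. Probe A_72_P440226 gave 0.66 (SE 0.24, limma adjusted p = 0.052), with 3 DD pigs above every LW pig and DD_06 the lowest of all. The first pair of probes followed each other within breed and chip with r = 0.96 (n = 21), while their r to the third was 0.15 and 0.19. All were well above background on every array, and no spot of theirs was saturated. Which transcripts each probe detects was not tested.

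**Figure D2:**
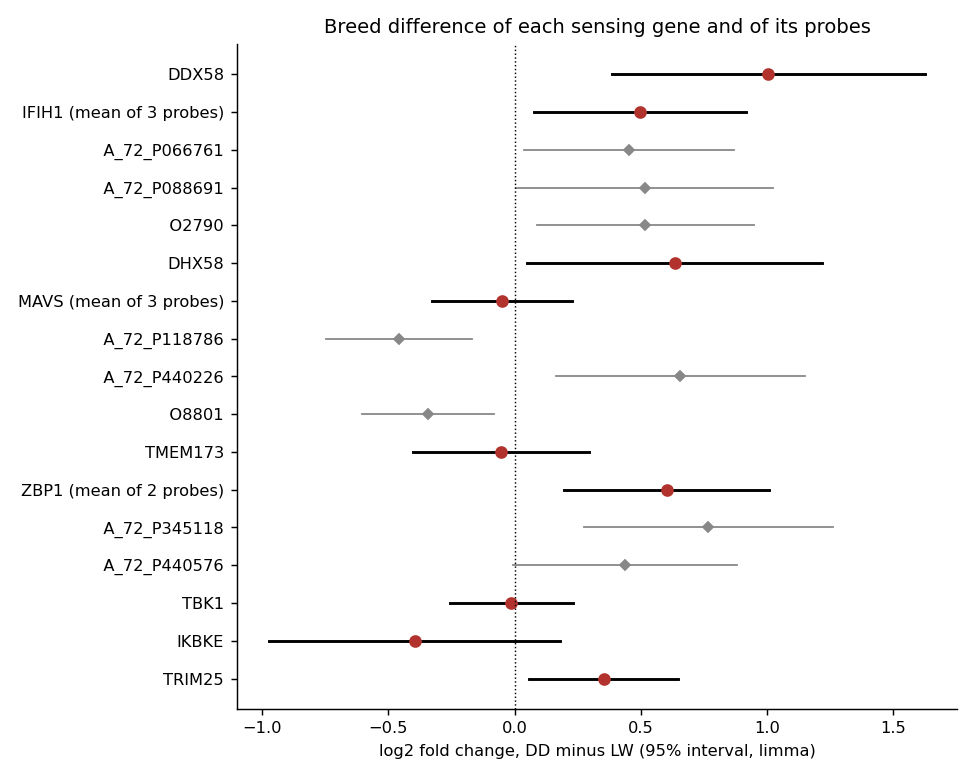
The horizontal axis is the log2 fold change between breeds (DD minus LW), and lines are 95% intervals from limma. Red circles are genes and grey diamonds are the single probes of the genes with several. DDX58 at 1.00 and ZBP1 at 0.60 lie farthest above 0 relative to their intervals among the genes, and the 3 MAVS probes lie on both sides of 0.

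ZBP1 is a sensor of nucleic acid in the Z conformation that can trigger necroptosis, and lies at chr17:57975982-57986117. The mean of its 2 probes ran from 4.76 through 5.46 to 6.89 in the DD pigs and from 4.62 through 4.96 to 5.60 in the LW pigs. Again 3 of 10 DD pigs lay above every LW pig and 9 of 10 above the LW median. The means were 5.59 ± 0.60 (SD, n = 10) and 4.98 ± 0.29 (SD, n = 11), and the log2 FC was 0.60 (SE 0.20, 95% interval 0.20 to 1.01, limma adjusted p = 0.035), a 1.52-fold higher level in DD pigs.

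The ZBP1 difference was 0.76, 0.53 and 0.51 within the chips and 0.42 (limma adjusted p = 0.043) without DD_06. The call was lost when any 1 of 8 pigs was left out (DD_10, DD_11, DD_23, LW_05, LW_12, LW_15, LW_18 or LW_24), with limma adjusted p between 0.053 and 0.068. Probe A_72_P345118, well above background on 9 DD and 10 LW arrays, gave 0.77 (limma adjusted p = 0.029). Probe A_72_P440576 was well above background on only 1 DD and 2 LW arrays and gave 0.44 (limma adjusted p = 0.14). Starting again from the scanner intensities, the ZBP1 value was 0.52 (limma adjusted p = 0.069), and with an offset of 50 added after background correction it was 0.28 (limma adjusted p = 0.070).

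TMEM173 encodes STING, the adaptor of the DNA pathway, and lies at chr2:141359402-141367222. Its level ran from 6.59 through 7.75 to 8.48 in the DD pigs and from 7.27 through 7.77 to 8.05 in the LW pigs. The DD pigs spread on both sides of the LW range, with 3 above and 2 below every LW pig. The log2 FC was -0.05 (SE 0.17, 95% interval -0.40 to 0.29, limma adjusted p = 0.84), with -0.11, -0.15 and 0.13 within the chips, and a probe of the same sequence named Tmem173 gave 0.0045.

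TBK1 is the kinase shared by the MAVS and STING branches, and lies at chr5:28880210-28929964. Its level ran from 6.05 through 6.72 to 6.83 in the DD pigs and from 6.05 through 6.62 to 6.98 in the LW pigs. The DD range lay inside the LW range, and the log2 FC was -0.01 (SE 0.12, 95% interval -0.26 to 0.23, limma adjusted p = 0.95), with 0.07, -0.05 and -0.07 within the chips. A separate probe named Tbk1 was well above background on 1 DD and 7 LW arrays and gave -0.27 (limma adjusted p = 0.28).

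IKBKE encodes IKKε, the inducible relative of TBK1, and lies at chr9:67123055-67147991. Its level ran from 4.89 through 6.78 to 7.84 in the DD pigs and from 5.90 through 7.17 to 7.89 in the LW pigs. Only DD_16 fell below every LW pig, 2 of 10 DD pigs were above the LW median, and the probe was well above background on 8 of 10 DD and 11 of 11 LW arrays. The log2 FC was -0.40 (SE 0.28, 95% interval -0.97 to 0.18, limma adjusted p = 0.31), with -0.18, -1.15 and 0.35 within the chips. It was -0.19 without DD_16, -0.04 without chip 2 and -0.11 with array brightness as a covariate. A probe of the same sequence gave -0.41, so repeat spots of that sequence differed by little.

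**Figure D3:**
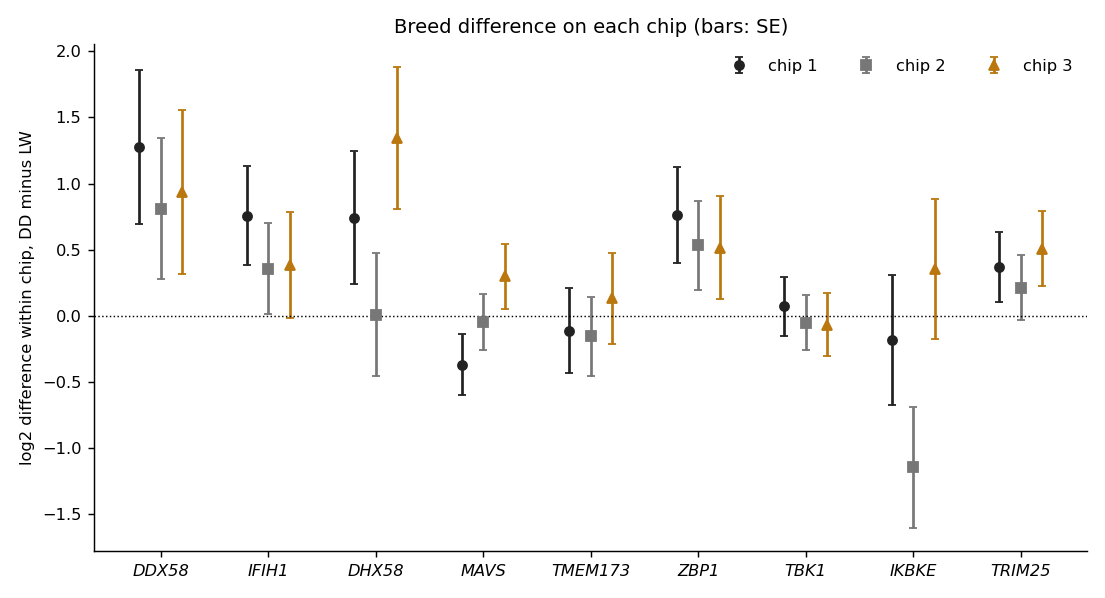
The vertical axis is the log2 difference between DD and LW pigs on each chip, bars are SE, and genes stand on the horizontal axis. DDX58, IFIH1, ZBP1 and TRIM25 are positive on all chips, DHX58 is near 0 on chip 2, and IKBKE ranges from -1.15 to 0.35.

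The differences between chips were tested as a breed-by-chip interaction. It passed the threshold for 0% of the 35578 gene names (0 by limma, with 5308 at an unadjusted p below 0.05), and the smallest adjusted p among the 9 genes was 0.39, for IKBKE. Chance gives such an unadjusted p to about 1 in 20 gene names, and 5308 is a larger share. With 3 or 4 pigs of a breed on each chip, the test can miss differences between chips.

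Some of the levels varied together among pigs of one breed and chip and others did not. This is described by correlations of residuals over the 21 pigs, which share litters and arrays. DDX58 and IFIH1 had the highest r of the 36 pairs, at 0.90 (Spearman rho 0.75, and r = 0.74 without DD_06 and LW_22, the 2 pigs farthest from the median of DDX58). IKBKE and TMEM173 followed with 0.82 (rho 0.81, and 0.63 without DD_11 and DD_16). DHX58 had an r of 0.78 to TRIM25, 0.72 to ZBP1, 0.70 to IKBKE and 0.68 to TMEM173. DDX58 had 0.68 to TRIM25, -0.16 to IKBKE and -0.10 to TMEM173. For the mean of the MAVS probes, which moved in opposite directions, the r to the other genes ran from -0.49 (ZBP1) to 0.43 (TBK1). That r describes none of these probes singly. The r of TBK1 ran from -0.12 (IKBKE) to 0.44 (IFIH1). The r between the called genes DDX58 and ZBP1 was 0.59, with rho 0.21, and it fell to 0.11 without DD_06, so that it rested on that pig.

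**Figure D4:**
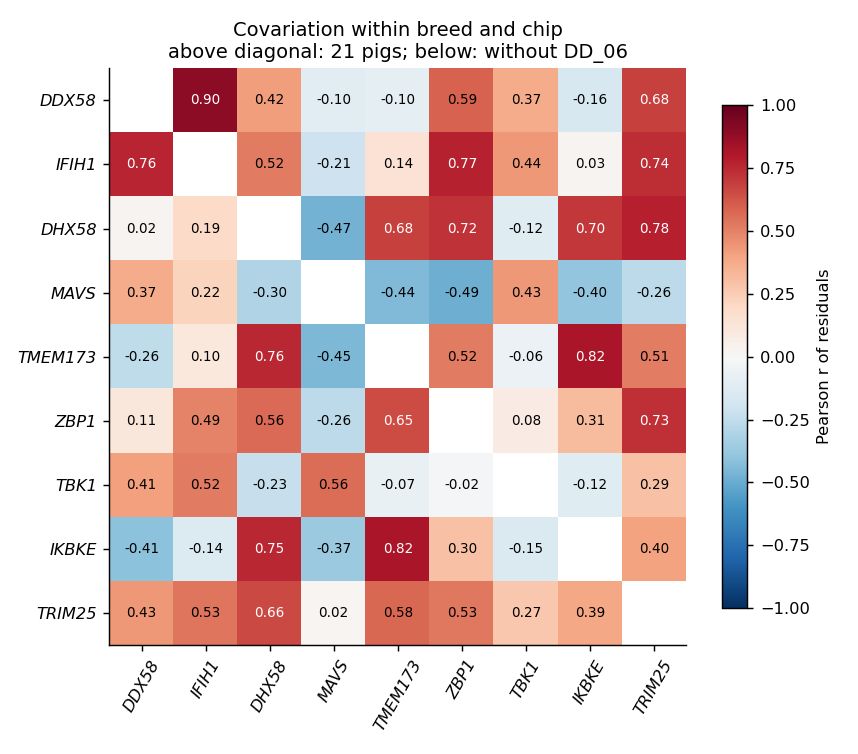
Pearson r between genes over pigs, after breed and chip were removed, for 21 pigs above the diagonal and without DD_06 below it. DDX58 with IFIH1 (0.90) and IKBKE with TMEM173 (0.82) are the highest above the diagonal. DDX58 with ZBP1 goes from 0.59 to 0.11.

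Among 10221 gene symbols outside the set, the 5 with the highest mean r to DDX58 and ZBP1 were HERC5 (0.83), MX2 (0.82), TDRD7 (0.80), IFIT5 (0.79) and ISG15 (0.79). Of these HERC5 and ISG15 belong to the ISG15 conjugation system, and MX2 and IFIT5 are antiviral effectors. Without DD_06 these values lay between 0.53 and 0.64. For single genes the highest r was 0.93 for DDX58 (EDN1), 0.96 for IFIH1 (ZNFX1), 0.92 for DHX58 (ANXA5) and 0.85 for TRIM25 (PSMB9). For the mean of the MAVS probes, which moved in opposite directions, it was 0.87 (ACPP). It was 0.84 for ZBP1 (FCGR1A), 0.94 for TMEM173 (TRAF3), 0.86 for TBK1 (ACOT9) and 0.96 for IKBKE (DBNL). With DD_06 left out, these single-gene values ran from 0.66 (ZBP1) and 0.75 (TRIM25) up to 0.96 (IKBKE).

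Other genes of the pathways were followed through 6 lists with 147 symbols, of which 100 were tested. The test called 15 of them higher in DD pigs and 7 lower, and the median of their log2 FC was 0.00. These counts lay near the 11.4% and 9.57% over all gene names. All 22 called genes differed in the same direction on every chip. They were called from a fit over the same chips, so this agreement is partly set by the selection. For 14 of the 22 the difference was largest on chip 3, the chip for which the study describes a technical bias. The same count over all called gene names was not made, so 14 cannot be read as particular to these lists. Over all gene names the calls fell from 7459 to 537 without chip 3. The part of the bias in these differences was not tested. Of the 15 higher genes, 9 were among the 14 tested first targets and ligands of the pathway. That list was chosen with earlier results of these data known, CXCL10 and OAS1 among them, so its count is a description and not a test.

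The first targets and ligands had 9 genes higher and 1 lower of 14, with a median of 0.49. The list includes genes that interferon itself induces, such as MX1 and OAS1, and does not separate them from direct targets. Of its interferon genes, IFNB1 and IL28B were not tested. IFNA1 had -0.28 (limma adjusted p = 0.29), at low mean levels of 4.10 in DD and 4.42 in LW pigs. These levels were near those of ZBP1 probe A_72_P440576 (4.71 and 4.27), which was seldom well above background. IL29 had 0.33 (limma adjusted p = 0.020). OAS1, which makes the activator of RNase L, differed by 1.88 on the log2 scale (limma adjusted p = 0.034, SE 0.60), with 3.83, 0.46 and 1.68 within the chips. The chemokine CXCL10 had 1.87 (SE 0.51, limma adjusted p = 0.019) and the antiviral GTPase MX1 had 1.48 (SE 0.36, limma adjusted p = 0.011), both of like size on all chips. IFIT5, which binds RNA, had 1.08 (SE 0.28, limma adjusted p = 0.016), and CCL5, a chemokine that T and natural killer cells make, was lower, at -1.10 (SE 0.30, limma adjusted p = 0.020).

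The transducers downstream of MAVS and STING had 3 of 23 genes higher and 0 lower, with a median of 0.01. The higher genes were OPTN, a scaffold for TBK1 (0.78, SE 0.13, limma adjusted p = 4.4e-04), IRF7, the interferon-inducible regulatory factor (0.57, SE 0.15), and RELA, a subunit of NF-κB (0.43, SE 0.14). On chips 1, 2 and 3 RELA differed by 0.21, 0.16 and 1.02. IRF3, a factor that TBK1 phosphorylates, had 0.12 (limma adjusted p = 0.55).

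The other sensors and co-sensors had 1 of 18 higher and 3 lower, with a median of -0.04. HNRNPA2B1, a nuclear RNA-binding protein also described as a DNA sensor, was higher (0.56, SE 0.15), with 0.17, 0.49 and 1.07 on chips 1, 2 and 3. The helicases DHX33 (-0.40, SE 0.10), DHX36 (-0.36, SE 0.12) and DDX1 (-0.31, SE 0.11) were lower, and DDX1 differed by -0.11, -0.16 and -0.73 on the chips. MB21D1, the gene of cGAS, had 0.05 (limma adjusted p = 0.84).

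The enzymes that limit nucleic acid in the cytosol had 2 of 9 higher and 0 lower, with a median of -0.02: the exonuclease TREX1 (0.75, SE 0.13, limma adjusted p = 9.2e-04) and RNASEH2A, a subunit of RNase H2 (0.37, SE 0.12). The regulators of RIG-I, MAVS and STING had 1 of 30 higher and 2 lower, with a median of -0.02. ISG15, the ubiquitin-like modifier, was higher (0.88, SE 0.26), and RNF135, a ubiquitin ligase of RIG-I (-0.33, SE 0.10), and the autophagy gene ATG5 (-0.29, SE 0.10) were lower. Of 7 tested subunits of RNA polymerase III, which can transcribe cytosolic DNA into a ligand of RIG-I, POLR3F was lower (-0.51, SE 0.14) and 0 were higher, with a median of -0.14.

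**Figure D5:**
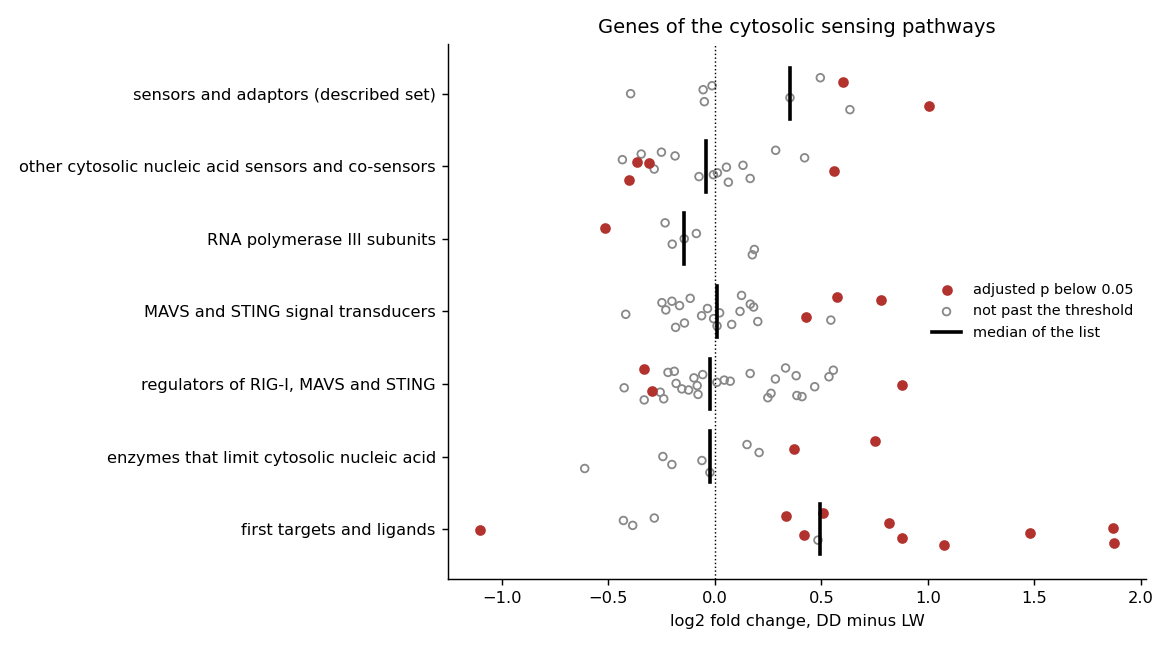
Each point is one tested gene with its log2 fold change (DD minus LW) on the horizontal axis, by list. Filled red points passed an adjusted p of 0.05 and black bars are medians. The list of first targets and ligands has 9 filled points above 0 and 1 below.

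Array brightness and some cell markers differed between the breeds. Brightness, taken for each array as its 75th percentile of processed signal on the log2 scale, averaged 7.53 ± 0.54 (SD, n = 10) for DD and 8.22 ± 0.38 (SD, n = 11) for LW pigs. With brightness as a covariate the log2 FC was 1.41 for DDX58 (limma adjusted p = 0.064), 0.97 for ZBP1 (limma adjusted p = 0.025), 0.88 for IFIH1 (limma adjusted p = 0.053) and 0.58 for TRIM25 (limma adjusted p = 0.085). Of 7 tested T cell markers all had a negative log2 FC and CD3D and CD3G were called lower, with the mean of the list between 8.86 and 9.79 in the DD pigs and between 9.35 and 9.98 in the LW pigs. Of 7 tested erythroid markers 5 had a positive log2 FC and 2 a negative one, and 2 were called higher, EPB42 and CA1. The mean of that list lay between 10.43 and 11.96 in the DD pigs and between 10.05 and 11.34 in the LW pigs. Among the monocyte, granulocyte, dendritic cell and platelet lists 1 marker each was called (CD163 and PPBP lower, ARG1 and XCR1 higher). The B cell and the cytotoxic and natural killer cell lists had 0 called. The log2 FC was positive for 3 of 5 monocyte, 4 of 7 granulocyte, 2 of 2 dendritic cell and 1 of 6 platelet markers. It was positive for 3 of 3 B cell and 1 of 6 cytotoxic and natural killer cell markers. The part of these cell markers in the differences of the 9 genes was not tested.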

How the data were processed

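Blood RNA was hybridised to a one-colour Agilent pig array and scanned with Agilent Feature Extraction 10.7.3.1, per the labels. The deposited intensity values are spot, local background and processed signals of each probe, and the flags deposited with them mark spots well above background or saturated. The deposited log2 matrix was made by the authors by normexp background correction, log2 scaling and quantile normalization, after outlier arrays had been removed. Breed came from the labels, and chip and sow from the study's sample list.

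Here controls and the dimmest 25% of probes by mean were left out, probes with the same gene name in exact spelling were averaged, and the breeds were compared with limma 3.58.1 (R 4.3.3). Breed and chip were fixed effects and the sow a random block by duplicateCorrelation (consensus correlation -0.11), followed by eBayes and Benjamini-Hochberg adjustment, threshold 0.05. As that correlation was negative, the block made no allowance for a likeness between litter mates and raised the number of calls. The fit called 7459 gene names and a fit without the block 5106. Levels per pig had the chip effect removed with breed kept. Scripts were tested on simulated data.

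The members and lists were chosen with earlier results of these data known. The 9 genes are given with the value of every probe. In each list, genes past the threshold are named by size of the log2 FC, at most 5. IRF3, MB21D1, IFNA1 and IL29 were named after their values were seen. No plasma cell marker was tested. Probes were not placed on the genome, and proteins and promoters were not analysed here. The number of arrays limits the precision.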

Additional observations from a re-analysis of the deposited data

Results flagged for a closer look

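In the 10 DD pigs, the gap between the highest or lowest pig and its neighbour was set against the range of the group for each of the 9 genes, with Dixon's critical value of 0.466; chance passes it in about 1 of 20 groups. The 11 LW pigs were not tested, since only groups of 4 to 10 were. These gaps passed for 2 genes. For IFIH1 the gap above the other DD pigs was 0.51 of the range and belonged to DD_06. For TBK1 the gap below the other DD pigs was 0.53 of the range and belonged to DD_10, whose level of 6.05 was nearly that of the lowest LW pig. DD_06 was also the highest pig for DDX58, DHX58, ZBP1 and TRIM25, at gaps of 0.42, 0.27, 0.41 and 0.39 that did not pass, and its array was the brightest of the DD arrays, at 8.49 on the log2 scale (75th percentile of processed signal).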

How the results depend on the processing

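Of the 9 genes, 1 was called higher from scanner intensities with an offset of 0 or of 50 (DDX58), without the filter on low probes (DDX58), without chip 2 (DHX58) and with brightness as a covariate (ZBP1), and 0 were called with litter means, without a chip term and without chip 3. Leaving out 1 pig at a time gave 0 (without LW_24) to 3 (without DD_16) calls. No setting called a gene lower. DDX58 was called in 10 of 15 settings and 19 of 21 fits without a pig, with log2 FC between 0.64 and 1.41, and ZBP1 in 8 and 13, with log2 FC between 0.28 and 0.97. The 22 pathway genes called became 5 with litter means, 10 without a chip term, 2 without chip 3 and 3 with brightness, and 14 to 35 without 1 pig (LW_24 and DD_06). The calls over all gene names fell from 7459 to 4670 without the filter, 969 with litter means, 1929 without a chip term, 537 without chip 3 and 780 with brightness, and without 1 pig they lay between 3761 (without DD_21) and 10051 (without DD_06). The cause was not tested. Values near 0 changed sign: MAVS with 75th-percentile scaling (0.0030), without chip 1 (0.13) and without 1 pig (-0.12 to 0.024). TMEM173 did so with that scaling (0.0034), with brightness (0.17) and without 1 pig (-0.15 to 0.073), and TBK1 without chip 3 (0.012), with brightness (0.18) and without 1 pig (-0.084 to 0.050). That scaling moved the median of all gene names by 0.10 and the share of calls that were higher from 54.3% to 69.3%, a share that was 32.8% with litter means, 33.7% without a chip term, 39.9% without chip 2, 42.6% without chip 3 and 44.1% with brightness. Relative to the median, DDX58 was 1.04 and ZBP1 0.89 with that scaling, against 1.05 and 0.65 in the deposited values. Matching gene names in any letter case, an alternative chosen after seeing the data, left the calls of the 9 genes as they were. No paired analysis was possible because the DD and LW pigs share no replicate number. The planned looks at proteins and promoters were not run.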
